A study of Mus musculus with 2 samples.

Results

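The genes described here are the 6 that encode the core of the mouse ISG15 system: the modifier Isg15, the activating enzyme Uba7, the conjugating enzyme Ube2l6, the ligases Herc6 and Trim25, and the protease Usp18. They were taken by symbol, and all 6 were found among the 32432 genes of the deposited matrices. Leukocytes infiltrating B16-F10 melanomas were sequenced as single cells in droplets (10x Genomics 3' v3 chemistry, in which unique molecular identifiers, UMIs, count captured transcript ends). Male mice aged 8 to 12 weeks received 1000 B16-F10 cells, a C57BL/6 melanoma line, in Matrigel into the skin of both legs on day 0, and 1 mg of tamoxifen into the peritoneum from day 5 for 3 days. Tumours were taken on day 14 and live CD45+ cells, CD45 being the surface protein shared by leukocytes, were enriched on beads and sorted. The iKO group was Trex1 fl/fl-R26CreERT2-ki/wt and the control group was Trex1 wt/fl-R26CreERT2-ki/wt. The controls therefore also carried 1 floxed allele and the tamoxifen-inducible Cre, and were given tamoxifen. Cre was driven from the Rosa26 locus, which is active in most host cell types, and the injected tumour cells did not come from these mice.

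ISG15 is a ubiquitin-like protein that interferon induces. The E1 enzyme UBA7 activates it, the E2 enzyme UBE2L6 carries it, and an E3 ligase, in mice mainly HERC6, attaches it to newly made proteins; TRIM25 is a ubiquitin ligase of RNA sensing that can also transfer ISG15. USP18 removes ISG15 from its substrates and, separately from that activity, binds the interferon receptor and restrains its signalling. TREX1 is an exonuclease that degrades DNA in the cytosol, and its loss is known to activate the cGAS-STING pathway and type I interferon. The series was made to ask how the response to induced Trex1 loss in host cells bears on tumour growth, and the comparison here asks how the transcripts of the ISG15 system differed between the genotypes and among leukocyte types.

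The promoters are shown because the genes differ in the interferon-response letters near their start. RefSeq (mouse build GRCm38.p6) gave a promoter window, from 250 bases before to 50 bases after the transcription start, for 5 of the 6 genes, with no entry for Usp18. Each window was searched on both strands for the core of the interferon-stimulated response element, which is GAAA, any 2 bases and GAAA again, for the shorter AANNGAAA that it contains and that interferon regulatory factors bind, and for TTCNNNGAA, the STAT element. Matches are in capitals, and positions count from the start site.
Isg15 (chr4:156200855-156200966, minus strand): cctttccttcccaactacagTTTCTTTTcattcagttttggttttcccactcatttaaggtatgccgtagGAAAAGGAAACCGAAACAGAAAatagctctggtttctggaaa
Uba7 (chr9:107975520-107975566, plus strand): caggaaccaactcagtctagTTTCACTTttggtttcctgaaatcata
Trim25 (chr11:88999388-88999417, plus strand): ctcctgttcagTTTCGATTccttcctcgct
The Isg15 window held 3 overlapping copies of the longer motif between bases -78 and -57, and 1 further copy of the shorter motif at -128 to -121 on the other strand. Uba7 and Trim25 each held 1 copy of the shorter motif, at -27 to -20 and at -4 to 4. Of 32851 mouse promoters of the same 300 bases, 3.44% held the longer motif, 23.9% held AANNGAAA and 8.30% held TTCNNNGAA. Ube2l6 and Herc6 had none of the 3 motifs in their windows, and none of the 5 windows held TTCNNNGAA; this says only that these letters are absent from these bases.

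Each genotype was 1 pool of 4 hashtagged samples, named iKO 1 to 4 and control 1 to 4 here, so that pool and genotype are one split and cannot be told apart. The labels do not say that each hashtagged sample is 1 mouse. The p-values of the iKO against control tests measure the spread between these samples. After removal of 1241 of 23731 barcodes, 22490 cells were left, with median UMIs per cell of 13048 to 14677 in the iKO and 6557 to 11931 in the control samples. Total UMIs per sample ran from 17111065 (control 2) to 96457227 (iKO 2). No barcode was shared between samples of a pool and 0 to 6 were shared between samples of different pools. Trex1 had 2 UMIs in all, both in control 2, so the genotype labels could not be checked from it. Cells were assigned to a type from its marker genes, and the types carry the suffix "-like" for that reason; 90.25% to 96.82% of cells per sample were assigned. Monocyte/macrophage-like cells made up 47.6% ± 7.58 of iKO and 33.2% ± 13.1 of control cells (SD, n = 4 each). Neutrophil-like cells made up 3.98% ± 2.11 against 15.7% ± 4.32 and double-negative T-like cells 2.03% ± 0.718 against 6.06% ± 1.48; in both, the groups did not overlap (exact permutation test, two-sided, p = 0.0286, the smallest that 4 against 4 samples allow). Fewer cells of a type and less RNA per cell cannot be told apart in the whole-sample values. Over all genes too, iKO 1 and 2 stood apart from iKO 3 and 4. Chi-squared per degree of freedom of the whole-sample counts was 25.4 between iKO 1 and 2 and 8.17 between iKO 3 and 4. It was 105 to 238 between samples of different iKO pairs and 22.7 to 107 between control samples. CD8 T-like cells made up 33.1% and 43.6% of iKO 1 and 2 and 13.5% and 11.5% of iKO 3 and 4. Their part in the results was not tested.

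In the control samples, Isg15, Trim25 and Usp18 had their highest mean in neutrophil-like cells. Uba7, Ube2l6 and Herc6 had theirs in mature dendritic cell-like cells. Only for Ube2l6 and Trim25 did that type not overlap the next. Levels are CPM, the UMIs of a gene scaled to the total UMIs of the summed cells of a type. Isg15 was highest in neutrophil-like cells (623 ± 298 CPM, SD, n = 4), followed by monocyte/macrophage-like (350 ± 121), mature dendritic cell (DC)-like (343 ± 55.7) and conventional DC2 (cDC2)-like cells (303 ± 194), and lowest in double-negative T-like (65.3 ± 20.1) and CD8 T-like cells (59.5 ± 19.9). Each step in that order was smaller than the larger SD of the 2 neighbours. Ube2l6 was highest in mature DC-like cells, the migratory, Ccr7-expressing DCs, at 74.8 to 158 CPM in the 4 control samples, with no overlap with the next type, Treg-like cells (26.4 to 33.4 CPM). Herc6 had its highest means in mature DC-like (55.3 ± 19.6) and double-negative T-like cells (40.4 ± 6.75), and Uba7 in mature DC-like cells (41.8 ± 25.1), where control 1 was at 78.8 and the other three at 22.7 to 34.4 CPM. Trim25 was highest in neutrophil-like cells (113 to 145 CPM), with no overlap with B-like cells (85.1 to 108 CPM), and lowest in CD8 T-like cells (22.9 to 33.3 CPM). Usp18 reached 34.6 ± 18.6 CPM in neutrophil-like, 34.4 ± 15.5 in cDC2-like and 31.6 ± 16.5 in mature DC-like cells, against 7.87 ± 4.02 in CD8 T-like cells.

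The split between myeloid and lymphoid cells was tested over 39 type-by-sample sums of the control samples (5 myeloid and 5 lymphoid types, sample as a block). The p-values of this test measure the spread of these sums within samples, with the types of a sample taken as independent. The samples themselves are not the units of this test. Isg15 was higher in the myeloid types by 1.92 ± 0.19 on the log2 scale (SE, edgeR, adjusted p = 2.77e-11), Ube2l6 by 1.63 ± 0.13 (1.80e-13), Usp18 by 1.49 ± 0.19 (1.44e-08) and Trim25 by 1.05 ± 0.10 (6.58e-12). Herc6 (0.01 ± 0.14, adjusted p = 0.986) and Uba7 (-0.03 ± 0.12, adjusted p = 0.845) did not pass. Of all genes tested, 34.6% were called higher in the myeloid types. In the iKO samples all 6 genes were higher in the mean of the myeloid types, as were 34.5% of all genes tested there. Uba7 was higher by 0.54 ± 0.10 (edgeR, adjusted p = 1.79e-05) and Herc6 by 0.39 ± 0.13 (adjusted p = 0.00650). Single types did not all follow that mean, though both genes were highest in mature DC-like cells. Mean Uba7 was 38.7 CPM in Treg-like and 38.0 in B-like against 36.4 in monocyte/macrophage-like iKO cells. Mean Herc6 was 87.8 in double-negative T-like and 83.8 in CD4 T-like against 78.7 in monocyte/macrophage-like iKO cells. Across the means of 12 types in control samples, the genes whose pattern was most like that of Isg15 were Cdkn1a, Creb5 and Il13ra1 (Pearson r of log2(CPM + 1) 0.949, 0.946 and 0.934). For Uba7 they were Rab21, Tmem123 and Foxp4 (0.949, 0.906 and 0.870), and for Ube2l6 Phyh, Sel1l and Mob1a (0.922, 0.889 and 0.883). For Herc6 they were Vopp1, Zdhhc3 and Gm47662 (0.924, 0.920 and 0.907), for Trim25 H3f3a and Ckap4 (0.925 and 0.892), and for Usp18 Gab2, Stxbp2 and Tcn2 (0.893, 0.890 and 0.873). Each is among the 3 highest of 7903 genes over types that share the same libraries, 1 of them with cells from a single control sample.

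**Figure D1:**
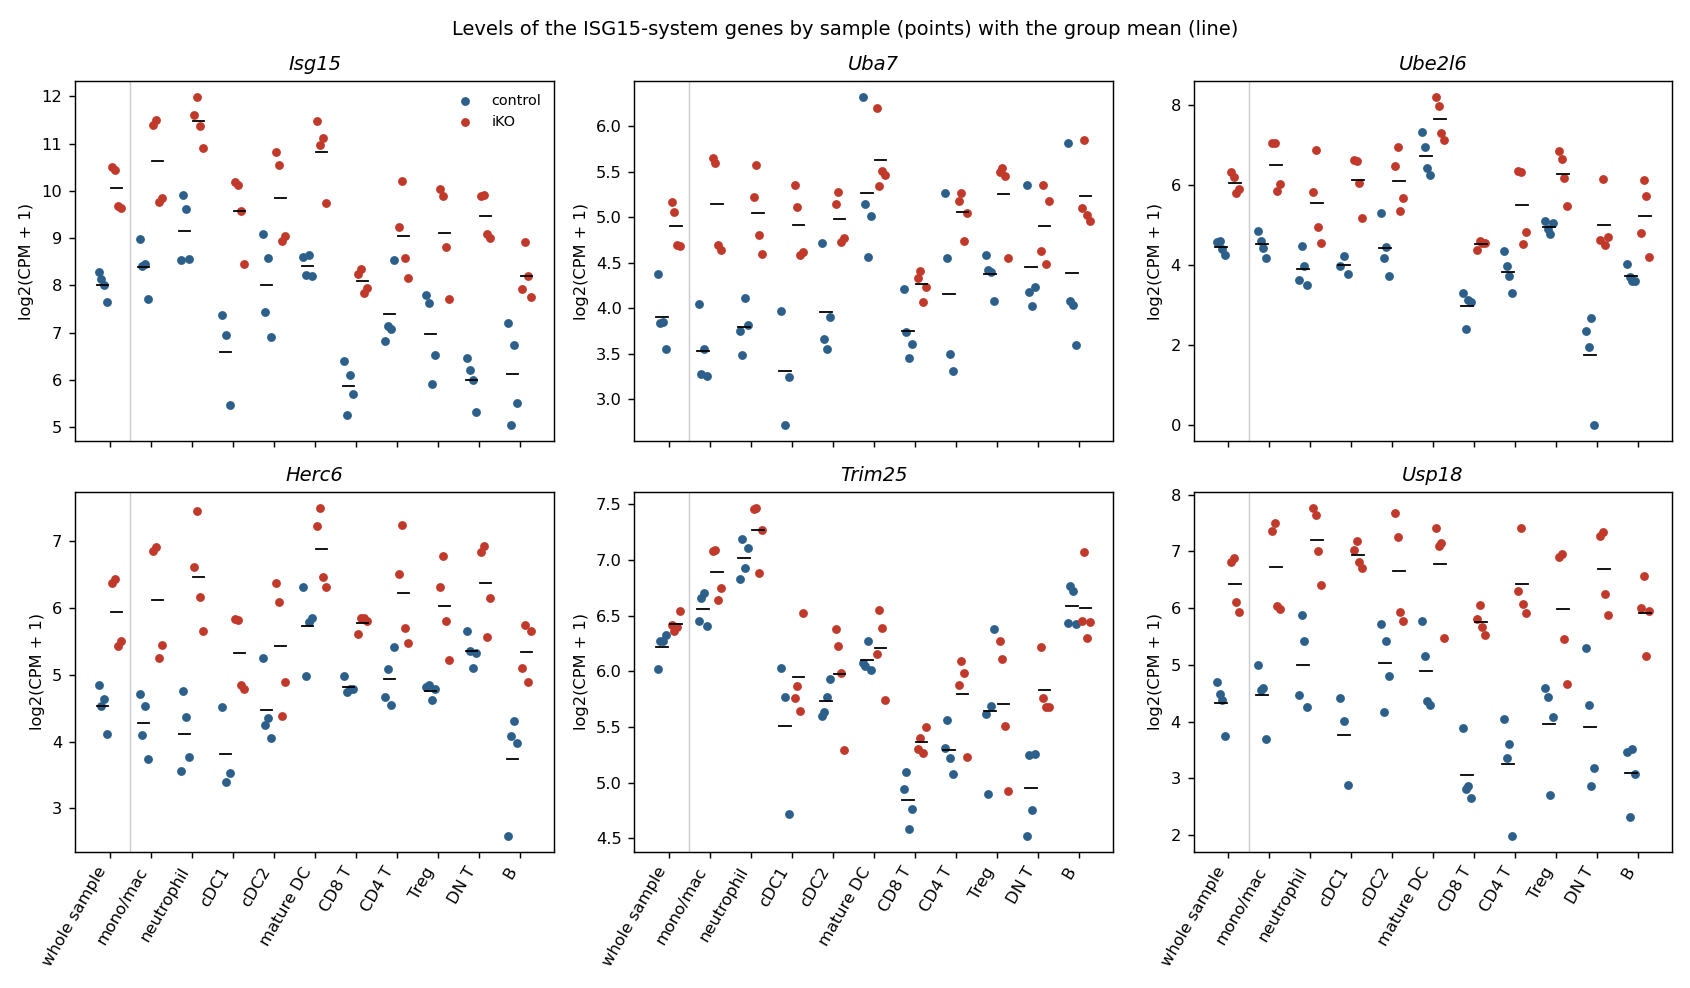
Levels of the 6 genes as log2(CPM + 1) in each sample (points, blue for control and red for iKO) for the whole sample and 10 leukocyte types, with the mean of the log values as a line. In the whole sample and in monocyte/macrophage-like cells the red points of Isg15, Uba7, Ube2l6, Herc6 and Usp18 lie above all blue points; the iKO points often form an upper pair (iKO 1 and 2) and a lower pair (iKO 3 and 4).

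Over all sorted leukocytes, 5 of the 6 genes were higher in the iKO samples and Trim25 did not pass the test, where 1.8% of the 13534 genes tested were called higher. The median log2 fold change of the 6 was 1.58, against -0.01 over all genes tested. In monocyte/macrophage-like cells 5 of 6 were called higher (5.95% of all genes), in neutrophil-like cells 5 (2.64%), in cDC1-like cells 5 (1.55%, with 3 control samples because control 2 had under 20 such cells) and in double-negative T-like cells 5 (5.45%). In CD8 T-like cells 4 were called higher (1.91% of all genes), in CD4 T-like cells 4 (1.53%), in Treg-like cells 4 (1.02%), in mature DC-like cells 1 (0.124%) and in cDC2-like cells none by edgeR (0.122%), where 5 were higher at an unadjusted p under 0.05 (6.36% of all genes) and DESeq2 called 2 (0.811%). In B-like cells only Isg15 and Trim25 had enough counts to be tested, and 1 was called (1.14%). None of the 6 was called lower in any type. Leaving out single samples lowered these counts: whole sample to 3 (without iKO 1, iKO 2, control 2 or control 3), monocyte/macrophage-like to 2 (without control 2 or control 4), cDC1-like to 3 (without iKO 1, control 3 or control 4), CD4 T-like to 1 (without iKO 1, iKO 2, control 2 or control 3) or 2 (without control 1), double-negative T-like to 3 (without iKO 2), mature DC-like to 0 (without control 2, control 3 or control 4) but to 4 without iKO 4, and Treg-like to 0 (without iKO 1, iKO 2, control 2 or control 3) or 2 (without control 4).

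**Figure D2:**
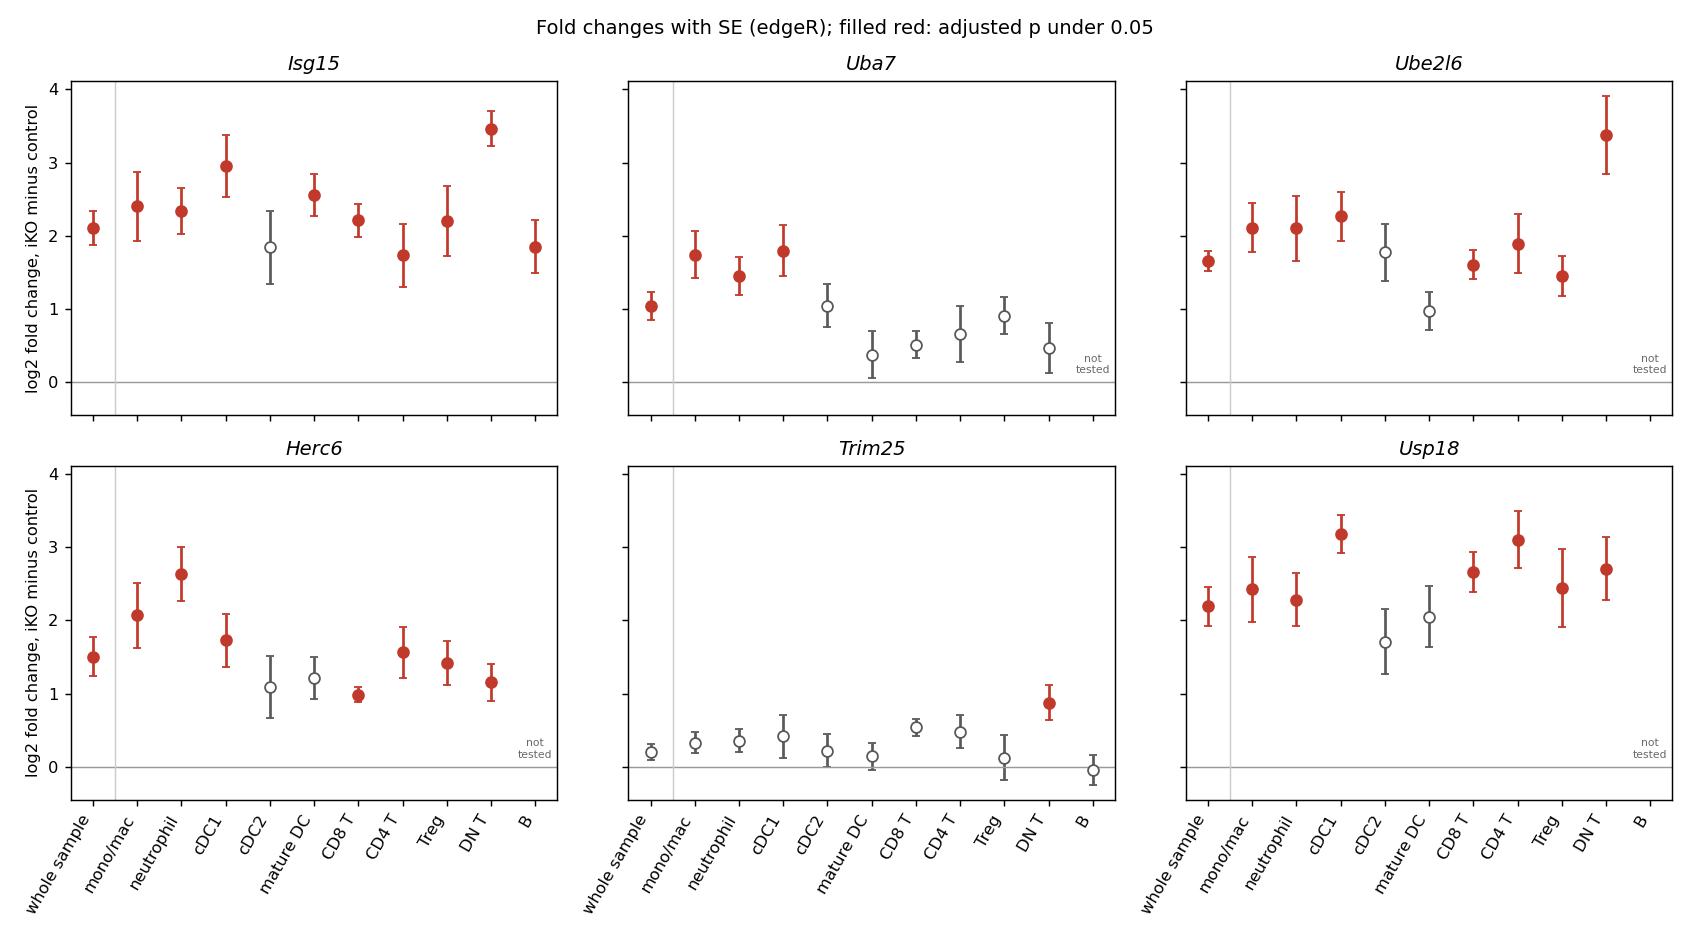
Log2 fold change (iKO minus control, edgeR, with its SE) of each gene in the whole sample and 10 leukocyte types; filled red points have an adjusted p under 0.05. Isg15 and Usp18 lie mostly between 2 and 3, Uba7 lies higher in monocyte/macrophage-like, neutrophil-like and cDC1-like than in the other types, and Trim25 lies between -0.05 and 0.87.

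Isg15, the modifier itself, was at 1461, 1394, 818 and 795 CPM in whole samples iKO 1 to 4 and at 311, 278, 255 and 198 CPM in controls 1 to 4. All iKO samples were above all controls, and iKO 1 and 2 were above iKO 3 and 4. The log2 fold change was 2.10 ± 0.24 (SE, edgeR, adjusted p = 0.00361), which kept its call under all 14 alternatives tried. Monocyte/macrophage-like cells held 72.5% of the Isg15 UMIs of an iKO sample on average and 57.4% of those of a control sample.
In monocyte/macrophage-like cells Isg15 was at 2685, 2894, 863 and 925 CPM in iKO 1 to 4 and at 504, 339, 348 and 207 CPM in the controls. The pair iKO 1 and 2 stood far above the pair iKO 3 and 4 in this type, so that the SE was wide (log2 fold change 2.40 ± 0.47, adjusted p = 0.0171). The call was lost without control 2 (2.39, adjusted p = 0.0572) or control 4 (2.22, adjusted p = 0.0546).
Neutrophil-like cells had the highest Isg15 of the iKO samples, 3126, 4037, 2672 and 1929 CPM, against 372, 965, 782 and 374 CPM in the controls (2.34 ± 0.32, adjusted p = 0.00184). The summed monocyte/macrophage markers in these cells were at 29.3% to 47.8% of their level in monocyte/macrophage-like cells in the iKO and 16.7% to 32.2% in the control samples. This is a sum of raw CPM, Lyz2 included. It does not tell macrophage RNA from RNA of the neutrophil-like cells themselves. The part of these markers in the result was not tested.
In CD8 T-like cells Isg15 was at 301, 323, 228 and 246 CPM in iKO 1 to 4 and at 82.8, 37.1, 67.7 and 50.6 CPM in the controls (2.21 ± 0.23, adjusted p = 0.00124). The gap between the 2 pairs of iKO samples was small here. Isg15 in these cells was at 11.2% to 26.6% of the level in monocyte/macrophage-like cells of the same iKO sample. In the controls it was at 10.95% to 24.4% of that level. The 8 summed monocyte/macrophage markers, all detected in each sample, were at 4.48% to 7.34% (2.67% to 11.5% in the control samples). In the controls the Isg15 and marker ranges overlapped. The part of these markers in the result was not tested.
The widest difference was in double-negative T-like cells, T cells without Cd4, Cd8a, Cd8b1 or Foxp3 UMIs, at 949, 962, 540 and 511 CPM against 86.7, 72.8, 62.9 and 39.0 CPM (3.47 ± 0.24, adjusted p = 4.51e-07). Isg15 here was at 33.3% to 62.6% of the monocyte/macrophage-like level of the same iKO sample, and at 17.2% to 21.5% in the controls. The same markers were at 7.94% to 31.3% of their own level in these iKO cells and 3.33% to 13.6% in the control cells. The part of these markers in the result was not tested. Without cells that carried markers of both lineages the log2 fold change was 2.84, and Isg15 was called under all 17 alternatives tried.
Mature DC-like cells had Isg15 at 2870, 2000, 2225 and 851 CPM in the iKO samples and at 388, 297, 395 and 294 CPM in the controls, with iKO 4 apart from the rest (2.56 ± 0.29, adjusted p = 0.00747). That call was lost without control 2 (adjusted p = 0.104), control 3 (0.0640) or control 4 (0.0820) and with at least 50 cells per sample (0.0690). cDC1-like cells had 1166, 1112, 762 and 348 CPM against 165, 122 and 43.3 CPM (2.95 ± 0.42, adjusted p = 0.00278), a call that held under all 14 alternatives tried. In cDC2-like cells the groups overlapped, at 1822, 1491, 487 and 531 CPM against 539, 173, 381 and 119 CPM (1.84 ± 0.50, adjusted p = 0.188).
The CD4+ subsets overlapped too, and both calls rest on few cells, 37 to 164 CD4 T-like and 22 to 117 Treg-like per sample. The values of cDC1-like (20 to 49 in the samples used), cDC2-like (24 to 81) and double-negative T-like cells (38 to 189) rest on few cells as well. CD4 T-like cells had 599, 1179, 381 and 286 CPM against 111, 139, 134 and 371 CPM (1.73 ± 0.43, adjusted p = 0.0494), and the call was lost under 8 of 17 alternatives, DESeq2 among them (0.146). Treg-like cells had 1059, 952, 449 and 208 CPM against 221, 195, 59.1 and 90.3 CPM (2.20 ± 0.48, adjusted p = 0.0292), and the call was lost under 6 of 16. The summed monocyte/macrophage markers were at 3.21% to 7.74% of their own level in iKO and 8.96% to 17.4% in control CD4 T-like cells, and at 5.30% to 13.3% and 6.87% to 18.6% in Treg-like cells.
In B-like cells Isg15 was at 243, 483, 290 and 214 CPM against 146, 31.9, 106 and 44.4 CPM (1.85 ± 0.36, adjusted p = 0.0205). This level was 9.05% to 33.6% of that in monocyte/macrophage-like cells of the same iKO sample, and their summed markers were at 14.7% to 23.9%, a range that overlaps it. The call was lost without iKO 2 (adjusted p = 0.0670) or control 4 (adjusted p = 0.0558).

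Uba7, the E1 enzyme that activates ISG15, was at 34.9, 32.3, 24.9 and 24.7 CPM in whole samples iKO 1 to 4 and at 19.7, 13.3, 13.4 and 10.7 CPM in the controls. The groups did not overlap (log2 fold change 1.04 ± 0.19, edgeR, adjusted p = 0.0304). The call was lost without iKO 1, iKO 2, control 2, control 3 or control 4, with adjusted p from 0.0503 to 0.122. Among monocyte/macrophage-like cells it was at 49.4, 47.3, 24.9 and 23.9 CPM against 15.5, 8.72, 10.8 and 8.54 CPM (1.74 ± 0.32, adjusted p = 0.0146; 0.0505 without control 2 and 0.0518 without control 4). In neutrophil-like cells it rose by 1.45 ± 0.25 (adjusted p = 0.00782) and in cDC1-like cells by 1.80 ± 0.35 (adjusted p = 0.0151; lost without iKO 1, control 3 or control 4, at 0.0524 to 0.112). CD8 T-like cells had Uba7 at 19.2, 20.3, 15.8 and 17.8 CPM against 17.5, 12.4, 9.98 and 11.2 CPM, groups that overlapped (0.51 ± 0.18, adjusted p = 0.183). The other lymphoid types tested gave 0.66 ± 0.38 in CD4 T-like, 0.91 ± 0.25 in Treg-like and 0.46 ± 0.34 in double-negative T-like cells, none past the threshold. Not all myeloid types passed either. Uba7 differed by 1.04 ± 0.29 in cDC2-like (edgeR, adjusted p = 0.193) and by 0.37 ± 0.32 in mature DC-like cells (adjusted p = 0.677, groups overlapping).

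Ube2l6, the E2 enzyme, was at 78.9, 71.9, 54.5 and 58.4 CPM in whole samples iKO 1 to 4 and at 22.7, 23.1, 19.9 and 18.1 CPM in the controls. The controls lay close together and well below every iKO sample (1.66 ± 0.14, edgeR, adjusted p = 0.00089), and the call held under all 14 alternatives tried. The level in monocyte/macrophage-like cells was 131, 131, 56.1 and 63.8 CPM against 27.9, 23.1, 20.5 and 17.1 CPM (2.11 ± 0.33, adjusted p = 0.00940). Mature DC-like cells, already highest in the controls, were at 290, 247, 155 and 137 CPM against 158, 122, 84.4 and 74.8 CPM, which overlapped (0.97 ± 0.26, adjusted p = 0.136; DESeq2, 0.0324). CD8 T-like cells had Ube2l6 at 19.6, 23.3, 22.2 and 22.3 CPM against 8.76, 4.24, 7.76 and 7.45 CPM (1.61 ± 0.20, adjusted p = 0.00237). Double-negative T-like cells held few Ube2l6 UMIs in the controls, at 4.13, 2.86, 5.39 and 0 CPM, against 23.7, 69.3, 21.5 and 25.1 CPM in the iKO samples, so that the fitted 3.38 ± 0.53 (adjusted p = 0.00103) rests on low counts.
In neutrophil-like cells Ube2l6 ranged widely within the iKO group, at 55.9, 115, 30.0 and 22.2 CPM against 11.4, 21.1, 14.7 and 10.2 CPM. The groups came close between iKO 4 and control 2 (2.10 ± 0.44, adjusted p = 0.0205), and the call was lost without iKO 1 (adjusted p = 0.0515), iKO 2 (1.38, 0.0547), control 3 (0.0566) or control 4 (0.0762).

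Herc6, the main ISG15 ligase of mice, was at 81.7, 85.6, 42.2 and 44.7 CPM in whole samples iKO 1 to 4 and at 27.7, 22.1, 24.0 and 16.4 CPM in the controls. Within the iKO group, iKO 1 and 2 were well above iKO 3 and 4, and the log2 fold change was 1.50 ± 0.26 (edgeR, adjusted p = 0.0261), and the call was lost without iKO 1, iKO 2, control 2 or control 3, at adjusted p from 0.0636 to 0.105. Monocyte/macrophage-like cells showed the same split, at 115, 120, 37.2 and 42.9 CPM against 25.1, 16.2, 22.2 and 12.4 CPM (2.07 ± 0.44, adjusted p = 0.0224), and the call was lost without iKO 1, iKO 2, control 2, control 3 or control 4, with adjusted p from 0.0518 to 0.0701. Among CD8 T-like cells the 2 pairs of iKO samples did not separate: Herc6 was at 47.9, 56.8, 57.0 and 55.3 CPM against 30.5, 25.8, 26.6 and 26.6 CPM (0.99 ± 0.11, adjusted p = 0.00151), called under all 17 alternatives tried. Its widest difference was in neutrophil-like cells, 97.2, 175, 70.5 and 49.3 CPM against 10.8, 26.2, 19.6 and 12.7 CPM (2.64 ± 0.37, adjusted p = 0.00210).

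Trim25, the ligase shared with ubiquitin and RNA sensing, was at 84.5, 81.1, 83.4 and 92.0 CPM in whole samples iKO 1 to 4 and at 63.8, 76.1, 76.2 and 79.3 CPM in the controls. The iKO samples were all higher, by a small margin that the model did not call (0.20 ± 0.11, edgeR, adjusted p = 0.302). Its level in monocyte/macrophage-like cells was 135, 135, 98.8 and 107 CPM against 86.7, 100.3, 103 and 84.1 CPM, with overlap (0.33 ± 0.14, adjusted p = 0.161). CD8 T-like cells held 38.5, 41.2, 37.5 and 44.3 CPM against 29.8, 33.3, 22.9 and 26.1 CPM, without overlap and at the threshold (0.54 ± 0.12, adjusted p = 0.0508; DESeq2, 0.0127). The one call was in double-negative T-like cells, at 73.4, 53.0, 50.1 and 50.1 CPM against 22.0, 37.1, 26.05 and 37.4 CPM (0.87 ± 0.24, adjusted p = 0.0379). It was lost without iKO 1, iKO 2, control 1, control 2 or control 3 (adjusted p 0.0518 to 0.139), by DESeq2 (0.0722) and without cells carrying markers of both lineages (0.61, 0.323). In B-like cells Trim25 was at 86.5, 134, 77.6 and 85.8 CPM against 85.6, 108, 105 and 85.1 CPM (-0.05 ± 0.20, adjusted p = 0.974).

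Usp18, the ISG15 protease, was at 111, 117, 68.3 and 59.7 CPM in whole samples iKO 1 to 4 and at 25.0, 21.3, 19.7 and 12.5 CPM in the controls (2.19 ± 0.27, edgeR, adjusted p = 0.00583), and the call held under all 14 alternatives tried. In monocyte/macrophage-like cells it was at 163, 179, 64.6 and 62.3 CPM against 31.0, 22.6, 23.2 and 11.9 CPM (2.42 ± 0.44, adjusted p = 0.0143). The iKO samples again split into iKO 1 and 2 above iKO 3 and 4.
In cDC1-like cells, the DCs that cross-present antigen to CD8 T cells, Usp18 was at 129, 145, 111 and 104 CPM against 20.2, 15.1 and 6.34 CPM in controls 1, 3 and 4 (3.18 ± 0.26, adjusted p = 4.11e-05). All 4 iKO samples lay close together. In CD8 T-like cells it was at 54.7, 65.6, 49.6 and 45.2 CPM against 13.9, 6.01, 6.28 and 5.32 CPM (2.66 ± 0.27, adjusted p = 0.00115). In CD4 T-like cells it was at 77.7, 170, 65.9 and 59.4 CPM against 15.5, 9.26, 11.2 and 2.97 CPM (3.10 ± 0.39, adjusted p = 0.00133). In those 3 types each call held under every alternative tried. Usp18 was also called in neutrophil-like (2.28 ± 0.36, edgeR, adjusted p = 0.00402) and double-negative T-like cells (2.71 ± 0.43, adjusted p = 0.00108), under every alternative. In Treg-like cells (2.44 ± 0.53, adjusted p = 0.0283) the call was lost under 6 of 15. It was not called in cDC2-like (1.71 ± 0.44, adjusted p = 0.168) or mature DC-like cells (2.05 ± 0.42, adjusted p = 0.0741, overlapping). DESeq2 called both (0.00960 and 0.000168). B-like cells held too few Usp18 UMIs for the test, at 63.2, 93.4, 34.5 and 60.4 CPM against 10.1, 3.99, 10.4 and 7.40 CPM, from 1 to 38 UMIs per sample.

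Whether the genotype difference of a gene itself differed between myeloid and lymphoid types was tested as an interaction over 79 type-by-sample sums, which called 0.504% of 10518 genes. Here too the p-values measure the spread of the sums within samples, and the samples are not the units. None of the 6 was called by edgeR, and 3 had an unadjusted p under 0.05, as did 11.4% of all genes. Uba7 had the lowest adjusted p, with a difference that was 0.58 ± 0.16 larger on the log2 scale in myeloid types (adjusted p = 0.0806, unadjusted 0.000588). Herc6 leaned the same way (0.40 ± 0.19, adjusted p = 0.414) and Usp18 the other way (-0.51 ± 0.24, adjusted p = 0.396), while Isg15 (0.10 ± 0.23, adjusted p = 0.974), Ube2l6 (-0.20 ± 0.21, adjusted p = 0.807) and Trim25 (-0.12 ± 0.14, adjusted p = 0.854) had differences within about an SE of 0.

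The share of cells with a UMI was compared after each cell was thinned to 3000 UMIs, which left out 397 of 13531 iKO and 843 of 8959 control cells. Isg15 was seen in 60.4% ± 5.39 of all iKO and 25.0% ± 1.94 of all control cells (SD, n = 4 each; 81.8% and 41.3% without thinning). Of monocyte/macrophage-like cells the shares were 78.6% ± 13.5 and 32.3% ± 5.54, and in CD8 T-like cells 35.7% ± 2.97 and 10.7% ± 1.65 (66.7% and 23.7% without thinning). Usp18 was seen in 14.1% ± 1.89 of iKO and 2.88% ± 1.30 of control CD8 T-like cells. Trim25 was seen in 21.5% ± 0.558 of iKO and 18.6% ± 1.71 of control cells over the whole sample.
None of these ranges overlapped (exact permutation test, two-sided, p = 0.0286, adjusted over 66 values p = 0.0439, the smallest reached, higher in 4 of 4 samples). Of all 66 values, 47 were higher in the iKO samples without overlap, and the mean was higher in 65. Trim25 in B-like cells was lower, at 22.3% ± 4.14 against 25.2% ± 3.28. These shares were not computed for all genes, so no background stands beside the counts. Free RNA in the droplets can give UMIs to cells that do not express a gene. Of CD8 T-like cells, 8.19% ± 1.99 in the iKO and 26.3% ± 2.63 in the control samples had a UMI of Apoe, a macrophage transcript, which was itself seen in fewer cells of the whole iKO samples (28.7%, range 19.4% to 37.9%, against 50.5%, range 44.2% to 60.3%). The median UMIs of CD8 T-like cells were 7777 to 18570.5 and 7970 to 12389. In the control samples the shares of CD8 T-like cells with an Isg15 or Usp18 UMI lay below the Apoe share. The Apoe share does not measure the free RNA of other genes. The amount of free RNA of the 6 genes, which may differ between the groups, was not measured, and its part in the shares was not tested.

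**Figure D3:**
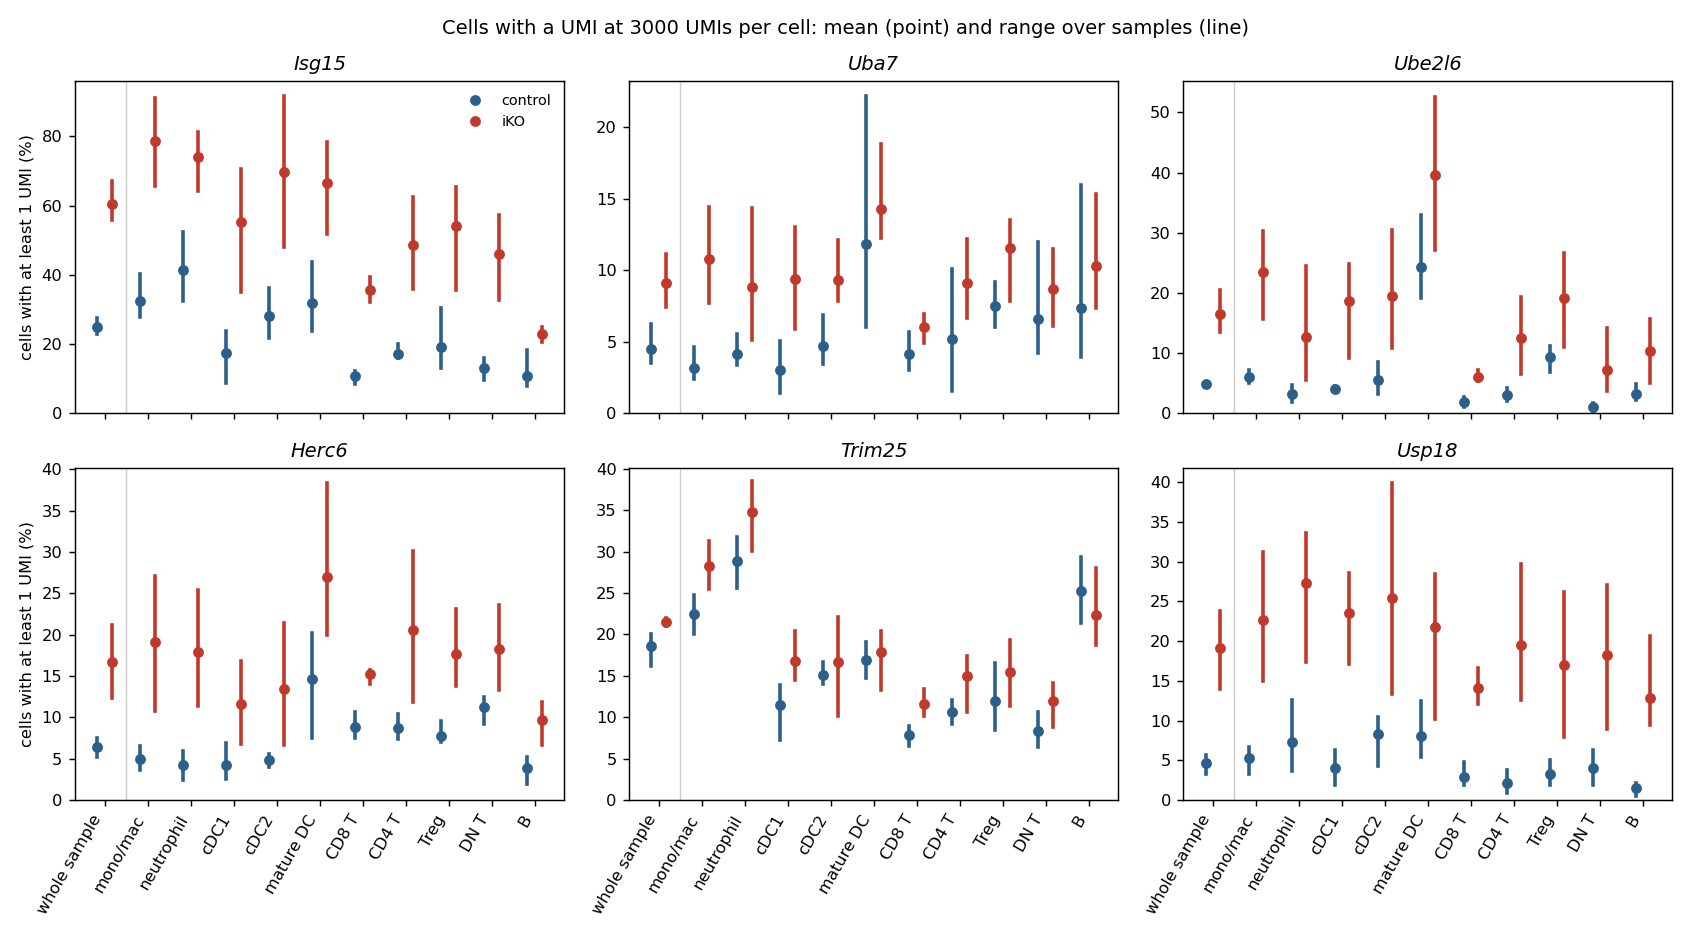
Percent of cells with at least 1 UMI of each gene at 3000 UMIs per cell, as the mean over samples (point) and the range (line), blue for control and red for iKO. For Isg15 the red range lies above the blue range in the whole sample and in all 10 types, and for Trim25 the ranges mostly overlap.

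The UMIs of the other genes were also set against 100 Isg15 UMIs of the same sample. These ratios are descriptions, with no test, and are compared between samples of 1 gene, not between genes. Usp18 stood at 7.51 to 8.36 UMIs per 100 Isg15 UMIs in the 4 iKO and 6.28 to 8.04 in the 4 control whole samples, nearly the same range although its level was 4.57-fold higher. The Usp18 ratio of monocyte/macrophage-like cells was 6.05 to 7.48 and 5.72 to 6.66. That of CD8 T-like cells was 18.2 to 21.8 in the iKO and 9.29 to 16.8 in the control samples, which did not overlap.
The ratios of the enzymes were lower in the iKO whole samples: Trim25 at 5.78 to 11.6 against 20.5 to 39.9, Uba7 at 2.32 to 3.11 against 4.78 to 6.35, and Herc6 at 5.16 to 6.14 against 7.95 to 9.41. Ube2l6 overlapped slightly, at 5.16 to 7.35 against 7.30 to 9.13. In double-negative T-like cells, where Isg15 differed most, Herc6 stood at 8.61 to 13.7 per 100 Isg15 UMIs in the iKO and at 52.9 to 100 in the control samples. That range was lower in the iKO samples although the mean level of Herc6 was higher there. Its levels overlapped, at 46.5 to 121 against 33.2 to 49.5 CPM (log2 fold change 1.16 ± 0.25, edgeR, adjusted p = 0.0105). The call was lost without iKO 2 (edgeR, adjusted p = 0.0725) and without cells carrying markers of both lineages (0.0844).

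**Figure D4:**
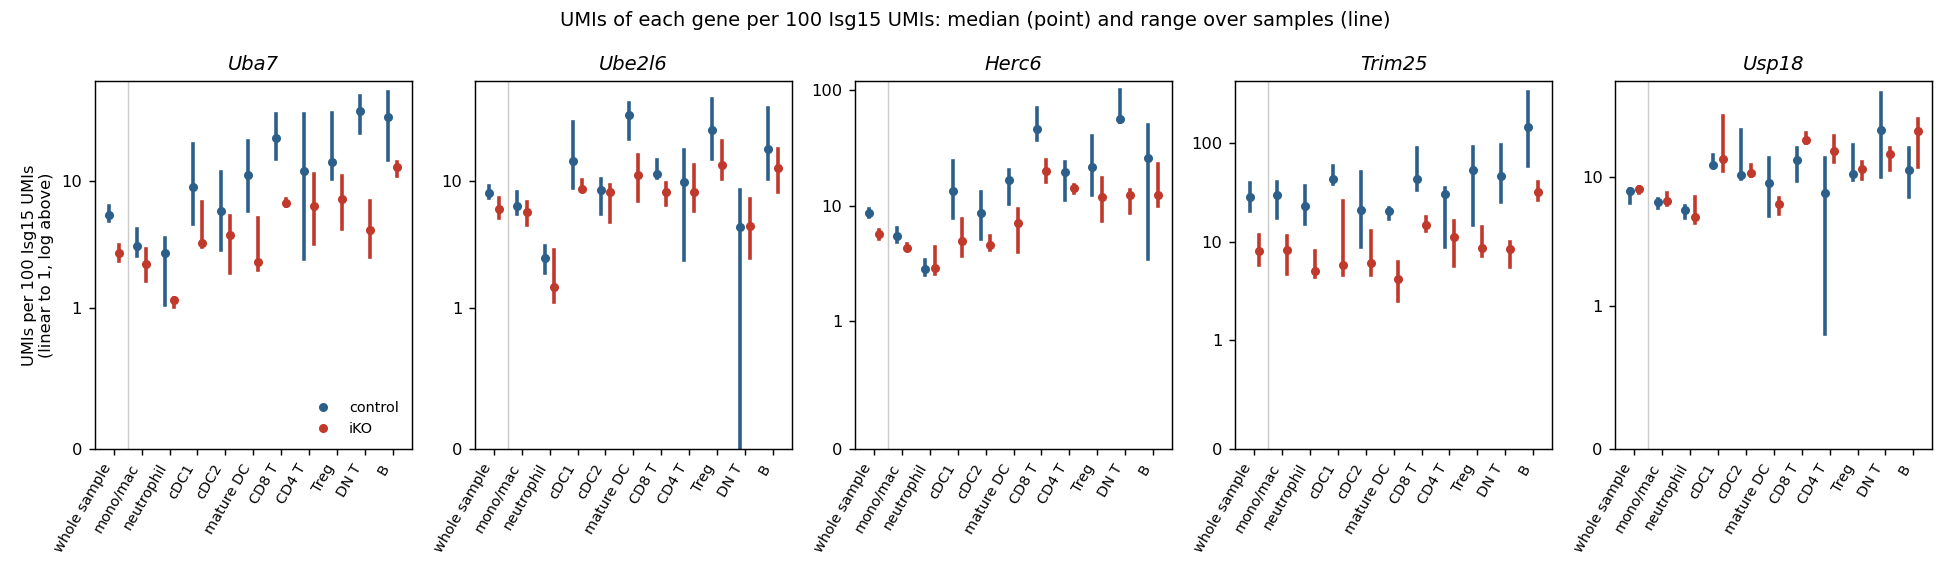
UMIs of each gene per 100 Isg15 UMIs in the same profile, as the median (point) and range (line) over samples, on an axis that is linear up to 1 and logarithmic above. The control and iKO ranges of Usp18 overlap in the whole sample and monocyte/macrophage-like cells, while those of Trim25 are apart in most types, with iKO lower.

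Other genes of the pathway gave a sparser picture. Of 22 further enzymes, partners and reported targets of ISG15 modification, 21 were tested in the whole sample, 3 were higher in the iKO samples and none lower (1.8% and 0.887% of all genes), with a median log2 fold change of -0.03. The 3 were Stat2, the interferon transcription factor that also tethers USP18 to the receptor (59.7 to 94.2 against 27.2 to 35.6 CPM; 1.24 ± 0.16, edgeR, adjusted p = 0.00654), Ddx58, which encodes the RNA sensor RIG-I (64.2 to 83.9 against 20.7 to 36.6 CPM; 1.28 ± 0.16, adjusted p = 0.00637), and Eif2ak2, the RNA-activated kinase PKR (71.8 to 88.5 against 34.0 to 46.4 CPM; 1.06 ± 0.12, adjusted p = 0.00323). In monocyte/macrophage-like cells those 3 and Itgb2, the integrin beta chain that pairs with Itgal in the reported receptor for secreted ISG15 (0.65 ± 0.16, adjusted p = 0.0322), were called higher, 4 of 21 where 5.95% of all genes were. The receptor chains Ifnar1 (-0.06 ± 0.12, adjusted p = 0.805) and Ifnar2 (-0.23 ± 0.17, adjusted p = 0.456) and the transcription factor Irf3, a reported substrate of ISG15 modification (-0.00 ± 0.09, adjusted p = 0.990) did not pass in the whole sample.
Of 29 genes of ubiquitin and other ubiquitin-like systems, 28 were tested in the whole sample. None was higher by edgeR and 1, Rps27a, a ubiquitin fusion gene that also encodes a ribosomal protein, was lower (-0.31 ± 0.06, adjusted p = 0.0430), with a list median of 0.15. In monocyte/macrophage-like cells, where 5.95% of all genes were higher and 5.21% lower, 3 of 28 were higher, among them the ubiquitin E1 Uba1 (0.56 ± 0.11, adjusted p = 0.0190) and the NEDD8 E1 subunit Uba3 (0.36 ± 0.10, just under the threshold), and 2 were lower, Rps27a (-0.50 ± 0.06, adjusted p = 0.00501) and Fau (-0.31 ± 0.06, adjusted p = 0.0150).

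**Figure D5:**
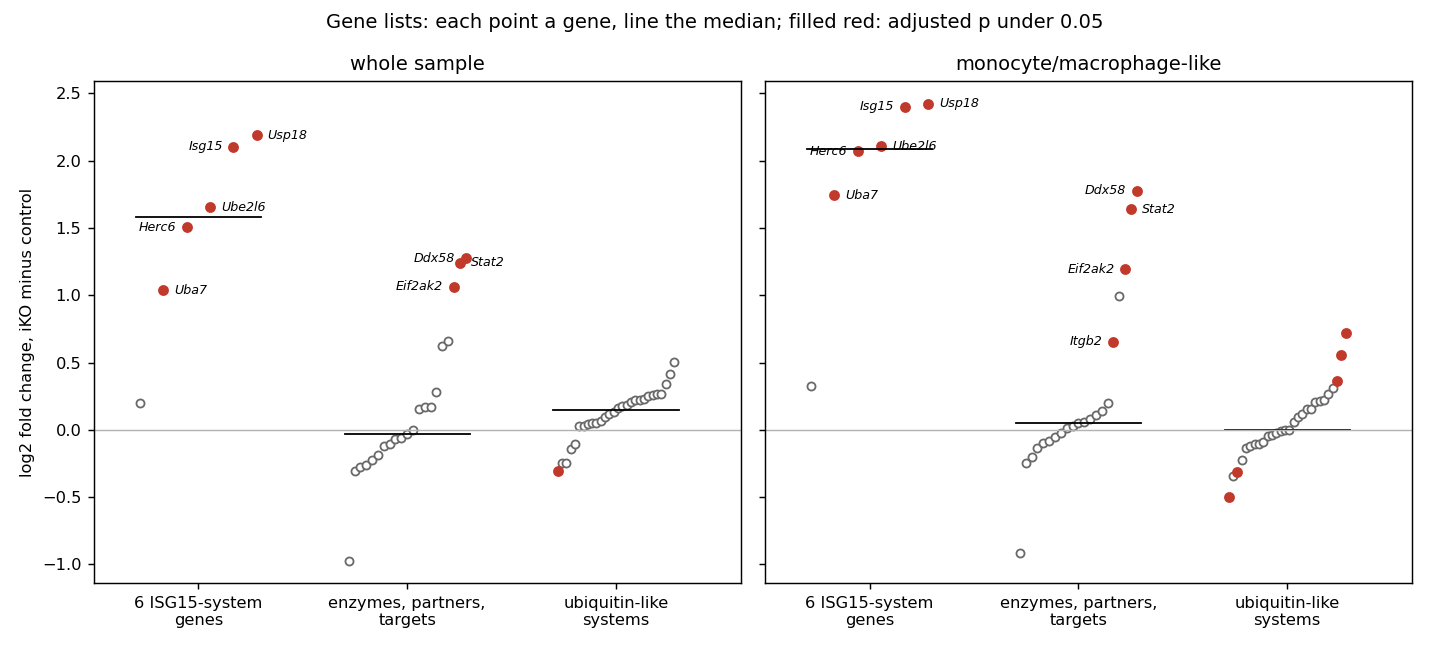
Log2 fold changes (iKO minus control) of the 6 ISG15-system genes, the 21 tested enzymes, partners and targets, and the 28 tested genes of ubiquitin-like systems, in the whole sample and in monocyte/macrophage-like cells; each point is a gene, the line is the median and filled red points have an adjusted p under 0.05. The medians of the 6 genes are 1.58 and 2.09, and those of the other lists lie close to 0.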

How the data were processed

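The authors deposited raw UMI counts per gene and barcode, 8 matrices made with Cell Ranger 7.1.0 against GRCm39, per the submitters' processing notes. The genes, gene lists and cell-type markers were chosen with earlier results of these data known. Cells with at least 300 genes and at most 10% mitochondrial UMIs were kept. A cell took the type with the highest share of detected markers, with at least 3 detected and no tie: 652 cells had too few, 475 were tied, 595 T cells had mixed subset markers, and in 2456 assigned cells the next lineage was close (a share of markers at most 1 in 6 lower). The planned split of T cells by Trdc was not used, so double-negative T-like cells can include gamma-delta T cells. No doublet caller was run; 3466 assigned cells with at least 3 markers of the other lineage (lymphoid or myeloid) were left out in an alternative added after seeing the data, as was leaving out control samples from the myeloid and lymphoid levels. Counts were summed per sample and type (at least 20 cells) and tested with edgeR 4.0.16 (quasi-likelihood, TMM, filterByExpr), with Benjamini-Hochberg adjustment over all genes of the profile and a threshold of 0.05; B-like Uba7, Ube2l6, Herc6 and Usp18 were below the filter. CPM in the text are per total UMIs of the profile, without TMM factors. The SE is the log2 fold change over the square root of F. Shares of cells used the expected share after drawing 3000 UMIs without replacement, and exact permutation tests. All 6 genes were named in every profile, the 3 genes most like each in pattern, and pathway genes where called (up to 8 per list) in the whole sample or in monocyte/macrophage-like cells, with Ifnar1, Ifnar2 and Irf3 named besides after their values were seen. No barcode was shared within a pool. The tests were tested on simulated data. DESeq2 1.42.0, other scalings and filters and left-out samples were alternatives. Some genes that the naming rule would give are not reported here.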

Additional observations from a re-analysis of the deposited data

Results flagged for a closer look

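A sample was listed here when its gap to the nearest of the other three samples was a larger part of its group's range than Dixon's 95% critical value for 4 samples; 12 of 132 gene, type and group combinations did, where chance gives about 1 in 20, and the combinations share samples. Control 1 stood above the other three controls for Herc6 in CD8 T-like cells (30.5 CPM, next 26.6), Usp18 in CD8 T-like cells (13.9, next 6.28), Uba7 in double-negative T-like cells (39.9, next 17.9) and Uba7 in B-like cells (55.4 CPM from 11 UMIs, next 16.0). Control 4 stood above the other controls for Isg15 in CD4 T-like cells (371 CPM, next 139), and the other three controls did not overlap the iKO samples. In the iKO group, iKO 1 was high for Uba7 in mature DC-like cells (72.7, next 44.6) and Trim25 in double-negative T-like cells (73.4, next 53.0). iKO 2 was high for Usp18 in CD4 T-like cells (170, next 77.7), Ube2l6 in double-negative T-like cells (69.3, next 25.1), Uba7 in B-like cells (56.8, next 33.3) and Trim25 in B-like cells (134, next 86.5). iKO 4 was low for Uba7 in Treg-like cells (22.5 CPM from 13 UMIs, next 42.8).

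The genotype difference of Ddx58 was larger in myeloid than in lymphoid types by 0.83 ± 0.18 on the log2 scale (interaction term, edgeR, adjusted p = 0.0191). In control samples Ddx58 was lower in myeloid than lymphoid types by that test (-0.92 ± 0.12, adjusted p = 3.24e-08), and in iKO samples the difference was -0.11 ± 0.12, which did not pass.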

How the results depend on the processing

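Of 998 alternative values of 62 fold changes, 886 kept their direction and side of the threshold, 83 lost and 25 gained a call, and 4 reversed. No fold change that was called reversed. Reversed values were small and lay among those without 1 sample: Trim25 in Treg-like cells ranged from -0.096 to 0.35 (-0.071 without iKO 1, -0.096 without control 2), and in B-like cells from -0.22 to 0.018 (0.018 without iKO 3, 0.0099 without control 3). The myeloid minus lymphoid level of Uba7 was 0.54 in iKO samples and ranged from -0.12 to 0.030 (0.030 without control 1, 0.025 without control 2), that of Herc6 from -0.14 (without control 1) to 0.084, and the Isg15 interaction from -0.11 (without control 4) to 0.23.

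The count of genes called higher changed in cDC2-like cells from 0 to 2 by DESeq2, 3 with no low-count filter and 2 with a replicate block; in mature DC-like cells from 1 to 4 by DESeq2, 4 with no filter, 3 with a replicate block and 0 with at least 50 cells; in B-like cells from 1 to 4 with no filter. In Treg-like cells it changed from 4 to 2 by DESeq2, which gave Herc6 and Usp18 no adjusted p, and to 0 without cells of a second lineage, and in double-negative T-like cells from 5 to 2 without them. With the replicate block 5 stayed called in the whole sample, but the replicate numbers were not taken as pairs: the labels name no shared animal or day, same-numbered samples correlated at 0.594, 0.340, 0.0449 and 0.669, differently numbered ones at -0.683 to 0.674, and not every sample correlated best with its own number. Leaving out each sample gave 3 to 5 in the whole sample, 2 to 5 in monocyte/macrophage-like, 3 to 5 in cDC1-like, 0 to 4 in mature DC-like, 1 to 4 in CD4 T-like, 0 to 5 in Treg-like, 3 to 5 in double-negative T-like and 1 to 2 in B-like cells. The cause of these changes was not tested.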

Other observations

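NK-like cells (2 samples per genotype with at least 20 cells) and plasmacytoid DC-like cells (1 such control sample) were not tested, since 3 samples per genotype were required. Isg15 in NK-like cells was at 582 and 377 CPM in iKO 1 and 2 and at 10.8 and 56.6 CPM in controls 1 and 3, the first of these from 2 UMIs. Usp18 there was at 136 and 117 CPM in the iKO samples and at 16.2 and 6.29 CPM in the controls. In plasmacytoid DC-like cells Isg15 was at 745, 717, 85.1 and 87.3 CPM in iKO 1 to 4 and at 33.0 CPM in control 3, and Usp18 was at 138, 230, 62.9 and 59.4 CPM against 33.0 CPM. Trim25 in the same cells was at 92.1, 151, 107 and 119 CPM against 61.6 CPM.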
